A study of Schizosaccharomyces pombe with 36 samples.

Results

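The inner subtelomeres of Schizosaccharomyces pombe are described here as all 300 bp bins lying 60 to 150 kb from the 4 ends of chromosomes I and II. The stretches are chromosome I 60001 to 150000 (left arm) and 5429101 to 5519100 (right arm), and chromosome II 60001 to 150000 (left arm) and 4389601 to 4479600 (right arm), in the RefSeq assembly ASM294v3. They hold 1200 of the 41905 bins of the assembly. For testing they were cut into 40 of the 1367 genomic blocks of 9 kb that every library covers, and they contain 28 of 518 sites of initiation. The members were set by position and not by a measured value, although the stretches were chosen with earlier results of these data known.

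The libraries come from polymerase usage sequencing (Pu-seq), in which a strain leaves extra ribonucleotides in the strand made by 1 mutant polymerase and alkali cuts the DNA at those ribonucleotides. Leading strands are mainly the work of Pol epsilon and lagging strands that of Pol delta, so the strand on which the cut ends fall shows which way replication forks were moving. A place where the strand bias switches from leftward to rightward forks is a site of initiation, and the size of that step grows with the share of cells in which the site fires. Fission yeast subtelomeres replicate late. Rif1 binds telomeres and late origins and recruits the PP1 phosphatase against origin firing. Taz1 binds the telomere repeats and recruits Rif1 to chromosome ends. Stn1 acts with its partner Ten1 in telomere protection and in completing DNA synthesis there. In fission yeast the inner subtelomere is also the region of the condensed knob chromatin that depends on Sgo2.

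Per the labels there are 9 conditions with 4 libraries each, 2 from a Pol delta strain and 2 from a Pol epsilon strain, all grown to log phase in YE medium. They are taz1 deletion (taz1::NAT, no temperature given), rif1 deletion (rif1::BSD, 34 °C and 25 °C), stn1-226 with a rif1 deletion (34 °C and 25 °C), stn1-226 alone, a temperature-sensitive allele (34 °C and 25 °C), and wild type (34 °C and 25 °C). The polymerase alleles are cdc6-L591G in Pol delta strains (spelled cdc6-I591G in the stn1-226 strains) and cdc20-M630F in Pol epsilon strains, and all strains carry rnh201-RED or an rnh201 deletion, which leave ribonucleotides in the DNA. Wild type here therefore means taz1+, rif1+ and stn1+ and not an unmodified strain. Backgrounds differ: the labels list ade6-704 leu1-32 ura4-D18 with rnh201-RED:kan for wild type and taz1 deletion, the same markers with rnh201::kan for rif1 deletion, and leu1-32 ura4- with rnh201 deleted by hphNT1 and lox-flanked polymerase alleles for the stn1-226 strains. A comparison with wild type is therefore also one of backgrounds. By the labels each condition and polymerase is 1 strain, so the p-values measure only the spread between libraries, which may be technical. At 25 °C, however, the wild-type replicates differed in ends over ura4, relative to the median bin. Replicates 1 and 2 stood at 0.005 and 1.26 in Pol delta, and at 0.002 and 0.272 in Pol epsilon. Whether they are the same strain is not known, and every comparison with wild type at 25 °C rests on them.

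Libraries held 2211932 to 25777570 ends, with 39 to 575 in the median bin, and a block sums 30 bins. Ends over taz1 were 0 in all taz1 deletion libraries. Ends over rif1, relative to the median bin, averaged 0.0443 ± 0.0082 (SD, n = 4) in rif1 deletion at 34 °C and 0.0489 ± 0.0157 at 25 °C. The libraries labelled stn1-226 rif1 deletion instead averaged 1.10 ± 0.07 (34 °C) and 1.08 ± 0.12 (25 °C). They go against their label at this gene, and they are called by their label throughout. Ends over rnh201 averaged 0.355 ± 0.046 (34 °C) and 0.337 ± 0.096 (25 °C) in wild type and 0.318 ± 0.026 in taz1 deletion. In rif1 deletion they averaged 0.324 ± 0.005 (34 °C) and 0.341 ± 0.043 (25 °C). Ends over rnh201 therefore do not tell the rnh201-RED label from the rnh201::kan label. In taz1 deletion the strand bias itself was weak: the SD of the genome-wide log2 bias was 0.169 to 0.465, against 0.683 to 1.56 in all other libraries, and the profile of Pol delta replicate 2 had a correlation of -0.058 with the mean of the other libraries. The libraries also fall into 3 classes by how their ends respond to local base content, which are shared between conditions at 34 °C but not between rif1 deletion and wild type at 25 °C.

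The sites that replication of these arms starts from are shown first by sequence, since fission yeast origins have no consensus and are marked by AT-rich DNA with runs of A or T bound by Orc4. For each arm the 300 bp bin is the one with the largest mean wild-type step among bins outside protein-coding transcripts, read from RefSeq ASM294v3 on the plus strand, with runs of at least 6 A or T in capitals.
chrI:61801-62100, by SPAC977.14C (left arm): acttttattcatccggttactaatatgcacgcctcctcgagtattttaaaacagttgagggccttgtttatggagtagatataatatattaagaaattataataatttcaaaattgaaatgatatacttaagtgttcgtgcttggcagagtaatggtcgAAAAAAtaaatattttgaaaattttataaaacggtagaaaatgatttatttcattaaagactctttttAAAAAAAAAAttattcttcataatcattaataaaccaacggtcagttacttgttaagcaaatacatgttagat
chrI:5448301-5448600, by SPAC1039.02 (right arm): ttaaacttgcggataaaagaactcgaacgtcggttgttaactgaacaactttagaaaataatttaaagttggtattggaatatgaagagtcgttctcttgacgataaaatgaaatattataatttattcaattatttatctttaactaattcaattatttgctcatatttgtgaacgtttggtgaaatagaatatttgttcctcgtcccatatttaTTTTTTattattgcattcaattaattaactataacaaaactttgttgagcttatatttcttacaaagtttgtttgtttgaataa
chrII:131101-131400, by mug14 (left arm): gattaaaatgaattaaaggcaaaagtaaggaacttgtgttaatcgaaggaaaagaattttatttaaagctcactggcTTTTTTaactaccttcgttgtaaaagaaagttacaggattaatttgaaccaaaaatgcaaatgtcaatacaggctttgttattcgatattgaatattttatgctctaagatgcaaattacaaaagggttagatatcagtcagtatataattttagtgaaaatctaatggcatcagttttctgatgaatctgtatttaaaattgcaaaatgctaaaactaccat
chrII:4440301-4440600, by ecl3 (right arm): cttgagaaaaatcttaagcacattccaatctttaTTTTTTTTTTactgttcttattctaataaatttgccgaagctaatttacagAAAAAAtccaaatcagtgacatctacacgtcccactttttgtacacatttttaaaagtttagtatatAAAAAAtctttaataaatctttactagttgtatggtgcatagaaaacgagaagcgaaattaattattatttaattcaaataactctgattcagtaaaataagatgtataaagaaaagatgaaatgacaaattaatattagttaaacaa
The bins by SPAC1039.02 and mug14 overlap annotated long noncoding RNAs, and the genes named are those with the nearest coding-gene start. The 4 bins hold 74.0, 75.0, 72.0 and 76.0% A and T, and the longest run, of 10 bases, is in the bins by SPAC977.14C and ecl3.

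Each arm held 7 of the 28 sites, with neighbours 4.5 to 20.4 kb apart. The median AT content of the 600 bp around them was 73.1%, against 72.7% for all 518 sites and 64.0% for all bins. A run of 6 A or of 6 T (AAAAAA or TTTTTT, which are each other's complement) lay in those 600 bp at 28 of 28 sites, at 97.3% of all sites and around 77.3% of all bins. The telomere-like heptamer GGTTACA, on either strand, lay within the 3 kb around 6 of the 28 (21.4%), around 19.7% of all sites and around 22.2% of all bins. Of the 28 sites, 27 lay outside protein-coding genes (96.4%), against 88.0% of all sites and 23.3% of bin starts. The wild-type step of the 28 sites had a median of 0.744 on the log2 scale, over 8 libraries each, against 1.07 for all sites.

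The steps ranged widely among the 28. The highest was that of the site by ecl3, which encodes a small factor linked to extended chronological lifespan, at 1.95 ± 0.29 (SD, n = 8 wild-type libraries). Next came the site by SPAC1039.02 at 1.79 ± 0.62 and that by pgt1, a glutathione transporter gene, at 1.47 ± 0.37. The lowest was at chromosome I 79201, by SPAPJ695.01C, at 0.141 ± 0.416, which is not above 0 beyond its spread. Means were also below their SD at the sites by dak2 (0.369 ± 0.473), shu1 (0.635 ± 0.786) and SPBPB10D8.04C (0.509 ± 0.809). The same held by alr2 (0.826 ± 0.860) and fub2 (0.481 ± 0.616). By alr2 the wild-type Pol delta libraries ran from -0.419 to 0.498, and the Pol epsilon libraries from 1.33 to 1.90. The sites by ecl3 and SPAC1039.02 differ by less than their spread, and so do those by SPAC1039.02 and pgt1.

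The direction of forks across these arms was measured per block as a log2 ratio, with ends from forks heading for the chromosome end over ends from forks heading for the centromere. Its mean over the 4 arms separated the genotypes. It was -0.139 ± 0.044 in rif1 deletion and 0.197 ± 0.011 in wild type at 34 °C, and -0.185 ± 0.018 in rif1 deletion and 0.152 ± 0.064 in wild type at 25 °C (SD, n = 4 each). Every rif1 deletion library was between -0.207 and -0.099, and every wild-type library between 0.085 and 0.214, so the groups did not overlap. Overlap is judged here and below over both polymerases together, unless the polymerases are named.

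For the libraries with the stn1-226 rif1 deletion label the mean was -0.162 ± 0.039 (34 °C) and -0.183 ± 0.016 (25 °C), within the range of rif1 deletion. In stn1-226 alone the mean was 0.036 ± 0.080 at 34 °C, with libraries at -0.065, 0.009, 0.101 and 0.098, and 0.159 ± 0.029 at 25 °C, with libraries from 0.136 to 0.199. All 4 values at 34 °C were below all 4 at 25 °C. In taz1 deletion it was 0.021 ± 0.018, in libraries of weak bias. No test is attached to these means, since each sums the same chosen stretches.

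**Figure D1:**
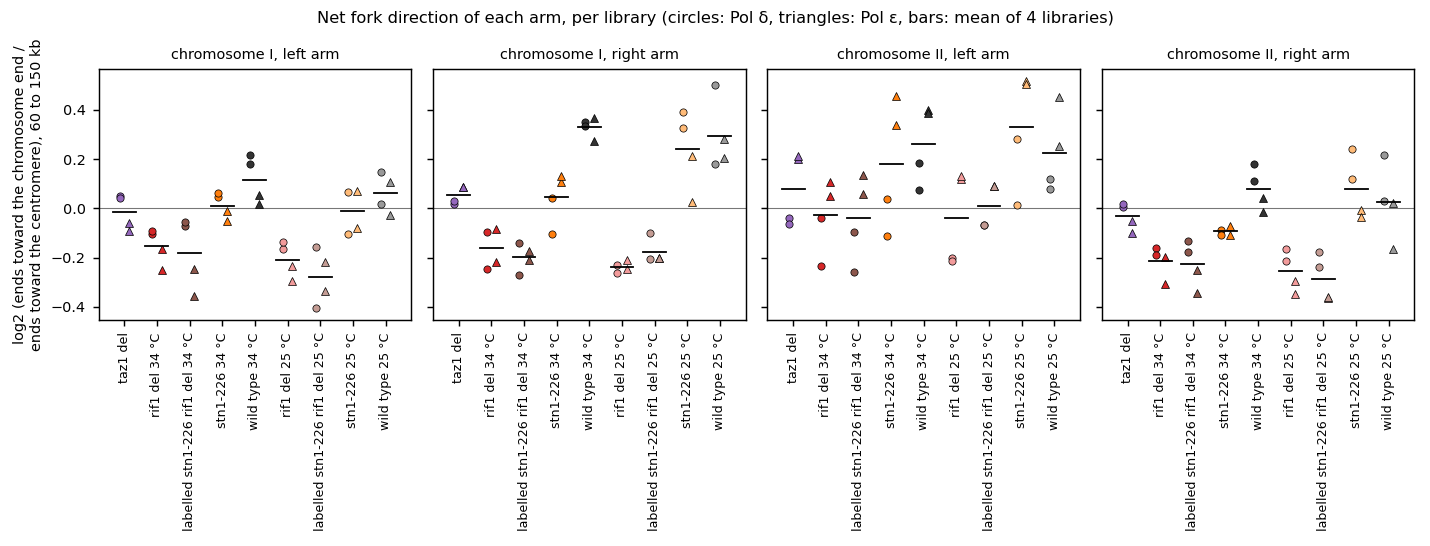
Fork direction of each arm from 60 to 150 kb (vertical axis, log2, positive where forks toward the chromosome end prevail), 1 point per library, circles for Pol delta and triangles for Pol epsilon, bars at the mean of 4 libraries. On the right arm of chromosome I the rif1 deletion libraries sit below 0 at both temperatures and all wild-type libraries above 0.

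At 34 °C the left and right arms of chromosome I averaged -0.153 and -0.162 in rif1 deletion, against 0.117 and 0.332 in wild type. The left and right arms of chromosome II averaged -0.029 and -0.214 in rif1 deletion, against 0.262 and 0.079 in wild type. Only on the left arm of chromosome II did libraries overlap at 34 °C, with -0.236 to 0.108 in rif1 deletion against 0.073 to 0.401 in wild type, and at 25 °C both arms of chromosome II overlapped. Farther in, from 150 to 240 kb, the same mean over arms was -0.047 ± 0.049 in rif1 deletion and -0.084 ± 0.051 in wild type at 34 °C, values that overlap. From 0 to 60 kb it was -0.065 ± 0.098 in rif1 deletion and 0.195 ± 0.246 in wild type at 34 °C, and these overlap too. Within each polymerase they did not. Pol delta stood at 0.006 and 0.014 in rif1 deletion against 0.435 and 0.378 in wild type. Pol epsilon stood at -0.195 and -0.086 against 0.004 and -0.038. At 25 °C this stretch did not overlap, with -0.26 to -0.019 in rif1 deletion against 0.011 to 0.426 in wild type. The separation is therefore not limited to 60 to 150 kb, within each polymerase at 34 °C and over all libraries at 25 °C.

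**Figure D2:**
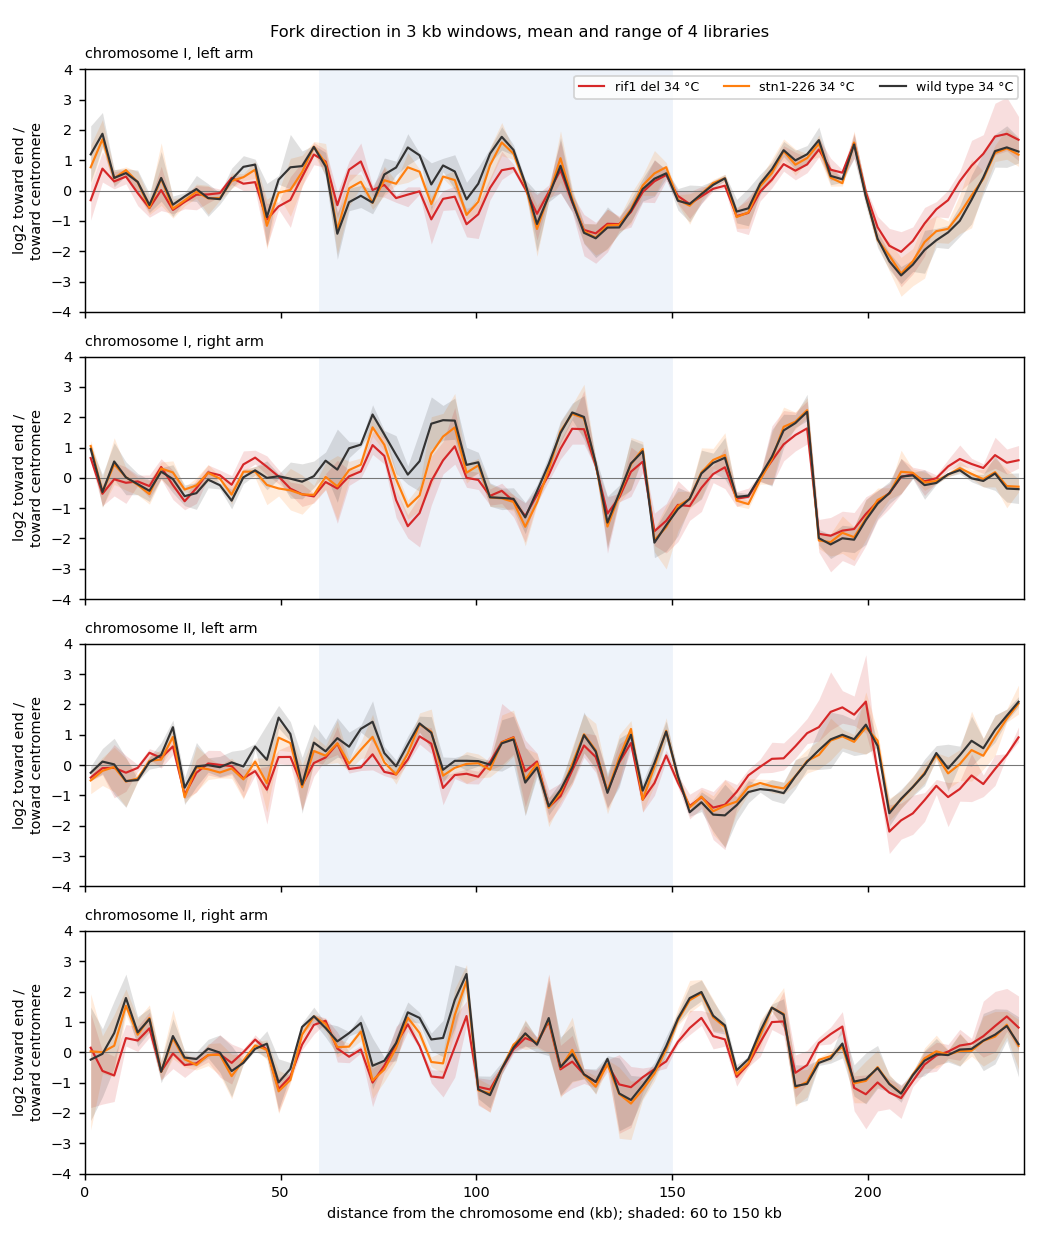
Fork direction in 3 kb windows (vertical axis, log2) against distance from the chromosome end (kb) on each arm at 34 °C, lines for the mean and bands for the range of 4 libraries in rif1 deletion, stn1-226 and wild type, with 60 to 150 kb shaded. Averaged over the 4 arms, the shaded stretch is at -0.139 in rif1 deletion, 0.036 in stn1-226 and 0.197 in wild type.

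Tested block by block with edgeR's quasi-likelihood test and Benjamini-Hochberg adjustment over all 1367 blocks, rif1 deletion moved fork direction toward the centromere in 16 of the 40 inner subtelomeric blocks at 34 °C and toward the end in 1, against 13.5% and 12.5% of all blocks. At 25 °C it was 19 toward the centromere and 3 toward the end, against 16.9% and 14.7% of all blocks, and 14 in all without wild-type Pol delta replicate 1. The median change over the 40 blocks was -0.30 at both temperatures, and that over all blocks was -0.01. The falls were mainly in the outer 20 blocks, the 5 of each arm nearest its end: 14 of the 16 falls at 34 °C and 15 of the 19 at 25 °C. Of the blocks called at 25 °C (22) and at 34 °C (17), 15 were called at both with the same sign, which is 68.18% of the first list and 88.24% of the second. The share of calls that repeat over all 1367 blocks was not computed, so the repeats may not be particular to these arms. No block showed a change of the rif1 effect with temperature by edgeR (0 of 40 called, 1 at an unadjusted p under 0.05; DESeq2 and limma also 0).

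The largest change was in the block 78 to 87 kb from the right end of chromosome I (5492101 to 5501100), which holds the proline transporter gene put4, the Con-6 family gene SPAC869.09, the methyltransferase gene pcm2 and the melibiase gene mel1. At 34 °C its fork direction was -0.873 and -0.804 (Pol delta) and -1.82 and -0.929 (Pol epsilon) in rif1 deletion, against 1.12 and 0.802 (Pol delta) and -0.105 and 0.157 (Pol epsilon) in wild type. At 25 °C it was -1.10, -1.05, -1.68 and -1.54 in rif1 deletion, against 2.18, 0.374, -0.222 and -0.118 in wild type, in the same order of libraries. All rif1 deletion libraries ran toward the centromere and none overlapped wild type, in which the Pol delta and Pol epsilon libraries differ from each other. The change was -1.60 (SE 0.27, edgeR adjusted p = 7.9e-05) at 34 °C and -1.90 (SE 0.27, adjusted p = 8.6e-06) at 25 °C.

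The block 87 to 96 kb from the left end of chromosome I (87001 to 96000) holds str3, a siderophore-iron transporter gene, and hhy1. At 25 °C its fork direction was -0.366, -0.259, -0.992 and -1.03 in rif1 deletion, against 1.37, 0.766, 0.169 and 0.004 in wild type. The groups did not overlap, and the change was -1.24 (SE 0.12, edgeR adjusted p = 3.8e-08). On the centromere side of the put4 block, the block at chromosome I 5483101 to 5492100 holds atd2, an aldehyde dehydrogenase gene, and cat1, an arginine and lysine transporter gene. At 34 °C it stood at -0.154, 0.187, 1.38 and 0.511 in rif1 deletion, against 1.14, 1.44, 2.59 and 2.29 in wild type, a change of -1.38 (SE 0.29, adjusted p = 6.9e-04). The groups overlap.

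The block 87 to 96 kb from the right end of chromosome II (4443601 to 4452600) holds the phosphate-response genes pho84, a phosphate transporter, and pho1, a secreted acid phosphatase. At 34 °C it stood at 0.168, -0.168, -1.09 and -0.509 in rif1 deletion, against 1.66, 1.12, 0.253 and 0.655 in wild type, a change of -1.32 (SE 0.39, adjusted p = 0.013). At 25 °C its libraries overlapped across polymerases but not within Pol delta or Pol epsilon. The change there was -1.31 (SE 0.39, adjusted p = 0.012). The 25 °C call is lost without wild-type Pol delta replicate 1 or wild-type Pol epsilon replicate 2. The 34 °C call is lost without the same-numbered libraries of wild type at 34 °C.

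A few blocks went the other way. In the block 60 to 69 kb from the left end of chromosome I (60001 to 69000), with the dihydroxyacetone kinase gene dak2, fork direction at 34 °C was 0.760, 0.368, 0.258 and 0.149 in rif1 deletion, against 0.007, 0.036, -0.689 and -0.788 in wild type. The groups did not overlap, and the rise was 0.74 (SE 0.10, edgeR adjusted p = 5.3e-06), with 0.67 (SE 0.10, adjusted p = 1.8e-05) at 25 °C. The neighbouring block 69 to 78 kb from that end, which holds SPAPJ695.01C, rose by 0.69 (SE 0.16, adjusted p = 0.0017) at 25 °C. There, at 25 °C, wild-type Pol delta replicate 1 stood at -0.992 while the other 3 wild-type libraries ran from -0.050 to 0.138. The block at chromosome II 105001 to 114000, with the amino acid permease gene aat1, rose by 0.37 (SE 0.11, adjusted p = 0.011) at 25 °C, a call that is lost without wild-type Pol delta replicate 1 or Pol epsilon replicate 1 and with the class block described next.

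The base-content classes bear on these counts. At 34 °C rif1 deletion and wild type hold the same classes, and within each the median change over the 40 blocks was -0.26 and -0.24, with 35 and 28 of the 40 below 0. At 25 °C rif1 deletion and wild type share no class, so class and genotype cannot be told apart within classes. With the class as a block, a fit chosen after seeing the data, the calls were 23 at 34 °C and 21 at 25 °C.

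**Figure D3:**
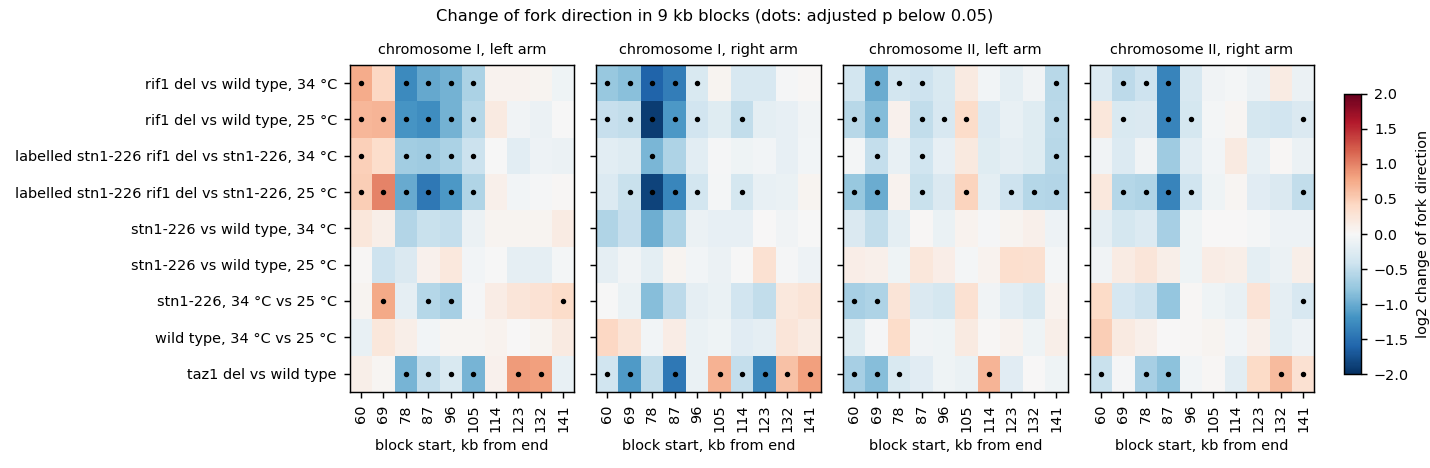
Change of fork direction (colour, log2; red toward the chromosome end, blue toward the centromere) in the 10 blocks of each arm, named by their start in kb from the end, for each comparison in rows; dots mark an edgeR adjusted p below 0.05. The darkest blue in the rows with a rif1 deletion label is at 78 kb on the right arm of chromosome I at 25 °C and 34 °C.

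The libraries that carry the stn1-226 rif1 deletion label, which hold ends over rif1, were compared with stn1-226 alone. The labels list the same background for both. Whether the strains otherwise match was not tested, and their Pol delta libraries differ over the array of transporter genes described below. At 25 °C fork direction fell in 20 of the 40 blocks and rose in 3, against 16.2% and 15.1% of all blocks, and the 23 calls became 7 with only these groups fitted. At 34 °C it fell in 8 and rose in 1, against 14% and 12.7% of all blocks, and the median change was -0.16. That count at 34 °C became 5 calls without either stn1-226 Pol delta replicate 2, stn1-226 Pol epsilon replicate 1, Pol delta replicate 1 or Pol epsilon replicate 2 of the labelled stn1-226 rif1 deletion, and 17 with the class as a block. Of the 22 blocks called for rif1 deletion against wild type at 25 °C, 20 were called here too with the same sign, 90.91% of that list and 86.96% of the 23 here, in comparisons that share no library. At 34 °C it was 9 of the 17 called for rif1 deletion, 52.94% of that list and all 9 of those here. Here too the share of repeated calls over all blocks was not computed, so the repeats may not be particular to these arms. The median change within classes was -0.37 and -0.29 at 25 °C and -0.17 and -0.18 at 34 °C. No block showed a change of this effect with temperature (0 of 40, 8 at an unadjusted p under 0.05, 1 by DESeq2, 0 by limma).

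At 25 °C the 3 largest falls were in the same blocks as for rif1 deletion, and at 34 °C the block with put4 again led but those with atd2 and cat1 and with pho84 were not called. The block 78 to 87 kb from the right end of chromosome I stood at -1.64, -0.798, -1.79 and -1.68 at 25 °C in the labelled stn1-226 rif1 deletion, against 0.937, 1.80, -0.463 and -0.826 in stn1-226. The groups overlap across polymerases but not within Pol delta or Pol epsilon, and the change was -1.85 (SE 0.27, edgeR adjusted p = 1.2e-05). At 34 °C it was -1.41 ± 0.32 in the labelled stn1-226 rif1 deletion and -0.487 ± 0.180 in stn1-226 (SD, n = 4 each), a change of -0.92 (SE 0.27, adjusted p = 0.012). In the block with str3 the change was -1.43 (SE 0.12, adjusted p = 3.5e-09) at 25 °C and -0.71 (SE 0.12, adjusted p = 9.5e-05) at 34 °C. In the neighbouring block 78 to 87 kb from the left end of chromosome I, with the gluconate symporter gene ght3 and the heme-uptake gene shu1, it was -0.70 (SE 0.21, adjusted p = 0.013) at 34 °C. At 25 °C the block with pho84 and pho1 changed by -1.32 (SE 0.40, adjusted p = 0.013), with groups that overlap only across polymerases. The block with SPAPJ695.01C changed by 0.997 (SE 0.16, adjusted p = 3.6e-05) and the block with aat1 by 0.45 (SE 0.11, adjusted p = 0.0022) at 25 °C. The block with dak2 rose by 0.49 (SE 0.10, adjusted p = 6.2e-04) at 25 °C and by 0.48 (SE 0.10, adjusted p = 7.4e-04) at 34 °C.

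stn1-226 alone changed no block against wild type by edgeR, 0 of 40 at 34 °C (0% of all blocks, 10 of the 40 with an unadjusted p under 0.05, 1 by DESeq2, 0 by limma), and likewise 0 of 40 at 25 °C (0% of all blocks, 2 at an unadjusted p under 0.05, 0 by DESeq2 and limma). At 34 °C the median change of the 40 was -0.10, and 27 were below 0. The block 78 to 87 kb from the right end of chromosome I stood at -0.378, -0.345, -0.742 and -0.482 in stn1-226, against 1.12, 0.802, -0.105 and 0.157 in wild type at 34 °C. The groups do not overlap, but the change of -0.98 (SE 0.27, adjusted p = 0.40) did not pass. The 34 °C classes gave medians of -0.14 and -0.07, and the class block called 6 of the 40, all falls, while leaving out wild-type replicate 2 at 25 °C called 3. The stn1-226 effect changed with temperature in 0 of the 40 blocks (8 at an unadjusted p under 0.05, 0 by DESeq2 and limma), and in 3 without wild-type Pol delta replicate 1 at 25 °C.

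The temperature comparison within stn1-226 did give calls: 5 of the 40 blocks fell and 2 rose at 34 °C against 25 °C, where 3.22% and 2.27% of all blocks did. In the block at chromosome I 96001 to 105000, with the pyruvate decarboxylase gene pdc101, stn1-226 stood at -0.238, -0.018, 0.044 and -0.101 at 34 °C, against 0.680, 0.850, 0.331 and 0.450 at 25 °C. The groups did not overlap, and the change was -0.66 (SE 0.13, edgeR adjusted p = 0.0059). The falls in the blocks 60 to 69 and 69 to 78 kb from the left end of chromosome II were -0.66 (SE 0.16, adjusted p = 0.018) and -0.62 (SE 0.16, adjusted p = 0.025), the first with the catechol O-methyltransferase gene cmt2 and the second with an L-asparaginase gene, SPBPB21E7.09. The rises were 0.76 (SE 0.16, adjusted p = 0.0097) in the block with SPAPJ695.01C and 0.37 (SE 0.10, adjusted p = 0.028) in the block 141 to 150 kb from the left end of chromosome I. These 7 calls are fragile: they were 21 with the class as a block, 13 by DESeq2, 0 by limma on scaled ratios, 0 with only these groups fitted, and 1 to 6 with 1 library left out, the 1 being without stn1-226 Pol epsilon replicate 1 at 25 °C. The stn1-226 libraries of the 2 temperatures share only 1 base-content class, so class and temperature are partly confounded. Within that class, with 1 library per polymerase and temperature, the median change over the 40 blocks was -0.24, with 23 below 0. Wild type gave 0 of 40 calls between 34 °C and 25 °C (0% of all blocks, 5 at an unadjusted p under 0.05, 0 by DESeq2 and limma).

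taz1 deletion was set against both wild-type temperatures together. Fork direction fell in 15 of the 40 blocks and rose in 8, against 35.5% and 33.9% of all blocks. The share of falls was thus near that of the genome, and the share of rises was smaller. The 8 rises were all in the inner 20 blocks, nearer the centromere, and 12 of the 15 falls in the outer 20. In wild type, 19 of the outer 20 blocks at 34 °C and 17 at 25 °C ran toward the end, against 10 of the inner 20 at each temperature. A weaker bias alone would lower blocks above 0 and raise those below 0, and its share in this split was not tested. The block 69 to 78 kb from the right end of chromosome I (5501101 to 5510100) stood at 0.283, 0.057, 0.311 and 0.298 in taz1 deletion, against 1.12 to 1.59 over 8 wild-type libraries, with a change of -1.13 (SE 0.11, edgeR adjusted p = 4.4e-08). The block 123 to 132 kb from the left end of chromosome I stood at -0.234 ± 0.166 (SD, n = 4) in taz1 deletion, against -1.08 ± 0.13 (n = 8) in wild type, a change of 0.85 (SE 0.11, adjusted p = 8.0e-07). Its neighbour at 132 to 141 kb changed by 0.83 (SE 0.10, adjusted p = 7.5e-07) and the block 141 to 150 kb from its right end by 0.82 (SE 0.17, adjusted p = 1.6e-04). On that right arm the block with atd2 and cat1 changed by -1.43 (SE 0.25, adjusted p = 3.2e-05) and the block 123 to 132 kb from the end by -1.30 (SE 0.27, adjusted p = 2.7e-04). In all 6 blocks the taz1 deletion mean lay nearer 0, and the SD of its 40 block means was 0.155 against 0.732 in wild type at 34 °C. With ratios scaled to a common spread, limma called 13, of which 9 were falls, and without Pol delta replicate 2 edgeR called 20.

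Fork direction can also be read as counts of blocks. In rif1 deletion 16 of the 40 blocks at 34 °C and 17 at 25 °C ran on average toward the chromosome end, against 29 and 27 in wild type. Counted in single libraries it was 14 to 18 at 34 °C and 15 to 19 at 25 °C in rif1 deletion, against 24 to 26 and 23 to 25 in wild type, so the wild-type counts from means exceed those of each of its libraries. In the outer 20 blocks it was 9 at both temperatures in rif1 deletion, against 19 at 34 °C and 17 at 25 °C in wild type. stn1-226 had 22 of the 40 at 34 °C and 25 at 25 °C, and the labelled stn1-226 rif1 deletion 17 and 19. In 18 blocks all 4 rif1 deletion libraries at 34 °C ran toward the centromere, as all 4 wild-type libraries did in 10.

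Initiation steps, compared over 3 kb on each side of a site, gave 0 to 3 calls among the 28 sites outside taz1 deletion, and these counts depend on the fit. With the class as a block they were 11 for rif1 deletion at 34 °C, 5 for it at 25 °C and 12 for the labelled stn1-226 rif1 deletion at 25 °C. Without rif1 deletion Pol epsilon replicate 1 the count at 34 °C was 6, and without wild-type Pol delta replicate 2 that at 25 °C was 4. With only the groups compared all 3 counts were 0. In rif1 deletion at 34 °C the step rose at 1 site and fell at 0, against 2.32% and 3.09% of all 518 sites. At 25 °C it rose at 1 and fell at 1, against 5.21% and 2.12%. In the labelled stn1-226 rif1 deletion it rose at 1 and fell at 2 against stn1-226 at 25 °C (4.25% and 1.93% of all sites), and changed at 0 at 34 °C (6.76% of all sites in either direction, 2 of the 28 at an unadjusted p under 0.05, 0 by DESeq2 and limma). stn1-226 against wild type gave 0 at 34 °C (0% of all sites, 1 with an unadjusted p under 0.05), and 0 at 25 °C (0%, 0 at an unadjusted p under 0.05), with 0 by DESeq2 and limma as well. The temperature comparisons gave 0 in stn1-226 (0%, 2 at an unadjusted p under 0.05) and 0 in wild type (0%, 0 at an unadjusted p under 0.05), again with 0 by DESeq2 and limma.

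The site behind each of these rises was the weakest in wild type, at chromosome I 79201 by SPAPJ695.01C, 79.2 kb from the left end. It is not among the sites called in wild type alone and entered the list through libraries of other conditions in which its step is high. Its values are therefore a description, with no test, and the counts of rises above are no support for a change. At 34 °C its step was 0.520, 0.521, 1.07 and 0.601 in rif1 deletion, against -0.086, 0.040, 0.298 and 0.380 in wild type. At 25 °C it averaged 0.596 ± 0.14 in rif1 deletion and 0.123 ± 0.596 in wild type, with overlapping libraries (SD, n = 4 each). It averaged 0.705 ± 0.148 in the labelled stn1-226 rif1 deletion and 0.132 ± 0.437 in stn1-226 at 25 °C, also with overlap.

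Other sites fell. The site at chromosome I 5475901, by SPAC922.03 (annotated as a 1-aminocyclopropane-1-carboxylate deaminase), stood at 0.527, 0.590, 0.728 and 0.788 in rif1 deletion at 25 °C, against 1.35, 1.05, 0.947 and 1.18 in wild type. The groups did not overlap, and the change was -0.47 (SE 0.14, edgeR adjusted p = 0.042), a call lost in 6 of the fits that left out 1 library. In the labelled stn1-226 rif1 deletion at 25 °C it fell by 0.59 (SE 0.14, adjusted p = 0.012) against stn1-226, and the site by SPAC977.14C, whose sequence is given first above, fell by 0.63 (SE 0.15, adjusted p = 0.0081). At that site all 4 labelled libraries, at 0.567 to 1.28, were below all 4 stn1-226 libraries, at 1.56 to 1.77.

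**Figure D4:**
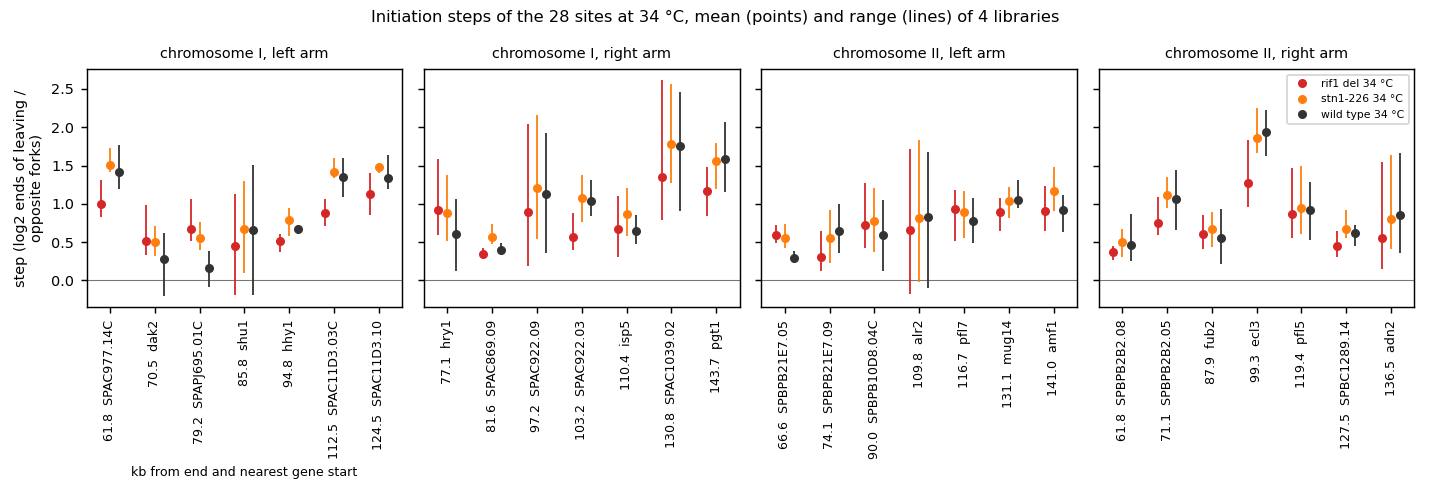
Initiation step of the 28 sites at 34 °C (vertical axis, log2 of ends of leaving over opposite forks), points for the mean and lines for the range of 4 libraries, named by kb from the end and nearest gene start, in rif1 deletion, stn1-226 and wild type. The wild-type step is highest at the site by ecl3 and lowest at the site by SPAPJ695.01C, which was not called in wild type alone.

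Sites were chosen by their step in libraries other than taz1 deletion, which favours in advance a lower step in taz1 deletion, here and genome-wide. The counts and adjusted p-values below are therefore a description and no support for a fall. In taz1 deletion the step fell at 22 of the 28 sites, against 83.4% of all sites called in either direction, and the fitted change was below 0 at all 28. At the site by ecl3 it was 0.317 ± 0.151 (SD, n = 4) in taz1 deletion against 1.95 ± 0.29 (n = 8) in wild type, a change of -1.64 (SE 0.23, edgeR adjusted p = 1.7e-06). The sites by SPAC1039.02 and pgt1 changed by -1.46 (SE 0.30, adjusted p = 1.4e-04) and -1.18 (SE 0.19, adjusted p = 1.1e-05). The median change of the 28 was -0.60, and that of all sites -0.84. The count was 16 without Pol delta replicate 2 and 9 by limma on scaled ratios, and the share of the weak genome-wide bias in these falls was not tested.

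Total ends, which follow the copy number and coverage of a block, changed in only 1 of the 40 blocks in any comparison by edgeR. In stn1-226 the block at chromosome II 96001 to 105000 fell against wild type at 34 °C (1 of 40, 0.219% of all blocks) and at 25 °C (1 of 40, 0.146% of all blocks). Relative to the genome its ends were 0.548, 0.539, 0.516 and 0.50 in stn1-226 at 34 °C, against 0.981, 0.935, 1.004 and 0.825 in wild type. At 25 °C they were 0.646, 0.556, 0.579 and 0.581 in stn1-226, against 1.02, 1.61, 0.863 and 1.22 in wild type. No library overlapped at either temperature. The change was -0.82 (SE 0.14, edgeR adjusted p = 0.0019) at 34 °C and -0.99 (SE 0.14, adjusted p = 2.4e-04) at 25 °C, and at 25 °C the adjusted p was 0.066 when only those groups were fitted. Within classes it was -0.90 and -0.76 at 34 °C and -1.20 and -0.73 at 25 °C.

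That block overlaps a tandem array of 4 genes annotated as transporters, SPBPB10D8.04C to SPBPB10D8.07C, from 91376 to 101140 on chromosome II. The array also reaches into the block 87 to 96 kb from that end, which was not called. Its total ends in stn1-226 were nonetheless below every wild-type library. They were 0.621 to 0.743 against 0.943 to 1.06 at 34 °C, and 0.658 to 0.828 against 0.885 to 1.57 at 25 °C. Of the 30-base words of the array, 97.3% occur more than 1 time within it, all at a spacing of 2759 bp, and the gene bodies are 99.6 to 100% identical over the shorter of each pair. Reads from such copies cannot be told apart, and how the submitters' alignment placed them is not given in the sources used here. Ends over the array, relative to its flanks, averaged 0.594 ± 0.089 in stn1-226 and 1.21 ± 0.19 in wild type at 34 °C, and 0.704 ± 0.249 in stn1-226 and 1.56 ± 0.22 in wild type at 25 °C (SD, n = 4 each).

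The libraries with the stn1-226 rif1 deletion label split by strain over the array. The Pol delta strain stood at 1.54 and 1.18 at 34 °C and at 1.17 and 1.64 at 25 °C. The Pol epsilon strain stood at 0.672 and 0.559 at 34 °C and at 0.628 and 0.677 at 25 °C. The split was the same way round at both temperatures, and since each polymerase is 1 strain here by the labels, strain and polymerase cannot be told apart. In stn1-226 alone, Pol delta stood at 0.659 and 0.502 at 34 °C and at 0.514 and 1.058 at 25 °C, below every labelled Pol delta library. Pol epsilon there ran from 0.534 to 0.7, a range that holds the labelled Pol epsilon libraries. The comparison of the labelled libraries with stn1-226 is therefore not shown to be free of other strain differences. taz1 deletion averaged 1.21 ± 0.17, and rif1 deletion 1.03 ± 0.18 at 34 °C and 1.01 ± 0.18 at 25 °C. The number of gene copies in each strain was not measured.

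**Figure D5:**
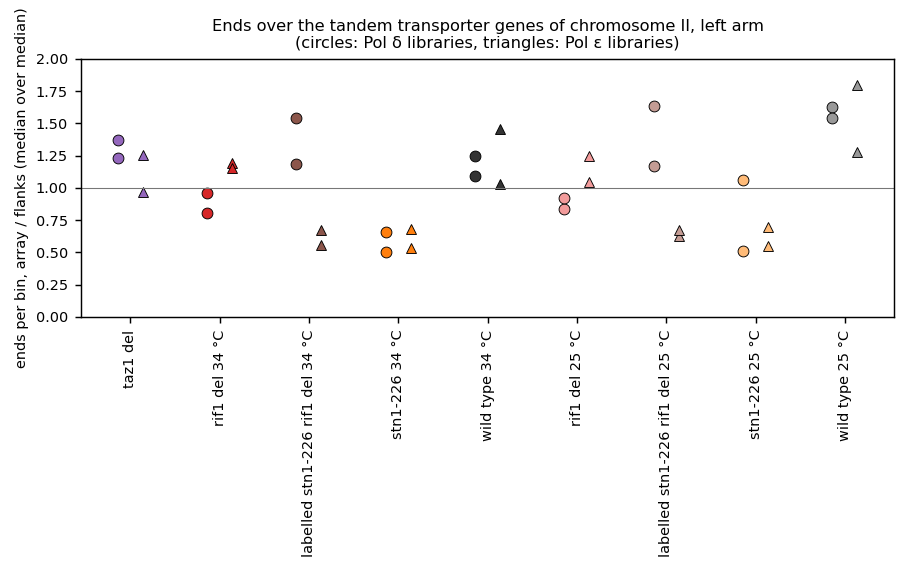
Ends per bin over the array of 4 tandem transporter genes divided by ends per bin over its flanks (vertical axis, ratio), 1 point per library, circles for Pol delta and triangles for Pol epsilon. The stn1-226 libraries at 34 °C lie between 0.502 and 0.681, below all wild-type libraries, and the labelled stn1-226 rif1 deletion libraries fall into a high Pol delta and a low Pol epsilon pair at both temperatures.

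In the other comparisons total ends gave no call among the 40 blocks by edgeR, although rif1 deletion at 25 °C gave 6 without its Pol epsilon replicate 1. These were rif1 deletion against wild type at 34 °C (0.0732% of all blocks, 0 of the 40 with an unadjusted p under 0.05) or 25 °C (0.0732%, 9 at an unadjusted p under 0.05), and the labelled stn1-226 rif1 deletion against stn1-226 at 34 °C (0%, 2) and 25 °C (0%, 4). They were also taz1 deletion against wild type (0.658%, 1), and 34 °C against 25 °C in stn1-226 (0%, 1) and wild type (0%, 1). DESeq2 gave 1 for rif1 deletion at 25 °C and 0 for the rest. Averaged over the 4 arms, total ends relative to the genome were 0.952 ± 0.048 in rif1 deletion, 0.919 ± 0.021 in stn1-226 and 0.966 ± 0.015 in wild type at 34 °C (SD, n = 4 each). From 0 to 60 kb they were 1.27 ± 0.08 in rif1 deletion, 1.01 ± 0.05 in stn1-226 and 1.35 ± 0.16 in wild type at 34 °C. The arms differed there. The right arm of chromosome II averaged 2.08 in wild type and 1.29 in stn1-226, and the left arm of chromosome I 1.32 and 0.996. The right arm of chromosome I averaged 1.03 and 0.869, and the left arm of chromosome II 0.983 and 0.876.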

How the data were processed

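Each of the 36 libraries has a deposited file per strand, 72 in all, with the ends counted in 300 bp bins. All values are whole and totals differ between libraries. These counts were used as the authors deposited them. Per the labels' protocols, DNA was cleaved with alkali and single-stranded fragments were selected by size. Per the submitters' processing notes reads were aligned with Bowtie2, and its version and settings and the genome build were not given in the sources used here. Bins were placed on RefSeq ASM294v3, whose base content the ends follow at that placement. The taz1 deletion files were offset by 50000 bp and, in other conditions, chromosome III of replicate 1 by 15000 bp.

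Which strand marks rightward forks was set per polymerase from the skew of the strand steps, since origins switch more sharply than zones of termination. Fork direction per 9 kb block (30 bins), total ends per block with TMM scaling, and the initiation step over 10 bins on each side were computed per library. Sites are local maxima above 20% of the 99th percentile of the step in the pooled libraries without taz1 deletion. All 36 libraries entered 1 fit over all blocks or sites, by the quasi-likelihood test of edgeR 4.0.16 (R 4.3.3), and the contrast averaged the difference in Pol delta and that in Pol epsilon strains. Benjamini-Hochberg adjustment and a threshold of 0.05 were used, and features with a mean under 10 ends were left out. For fork direction and steps the 2 opposed counts of a library were columns, with the library as a block. The fits were tested on simulated data. DESeq2 1.42.0 and limma 3.58.1 (on ratios scaled to a common SD), other filters, masked bins, blocks for replicate and class, and left-out libraries were alternatives. The rif1 deletion and stn1-226 comparisons share the wild-type libraries at each temperature, as the comparisons with stn1-226 share its libraries.

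In each comparison up to 3 called blocks or sites with the largest rise and up to 3 with the largest fall are named, with the largest wild-type step of each arm. The block 78 to 87 kb from the right end of chromosome I in stn1-226 against wild type, and the wild-type steps named beyond the largest of each arm, were chosen after their values were seen. The stretches, measures and lists were chosen with earlier results of these data known. Python 3.11.15 with numpy 2.4.6 and pandas 2.3.3 made the tables.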

Additional observations from a re-analysis of the deposited data

Results flagged for a closer look

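The libraries labelled stn1-226 rif1 deletion held ends over rif1 at the level of the rest of the genome: the lowest of the 8 stood at 0.961 of the median bin, above every library labelled rif1 deletion. In wild type at 25 °C, replicate 2 held ends over ura4, at 1.26 of the median bin (Pol delta) and 0.272 (Pol epsilon), although the labels list ura4-D18. Wild-type replicate 2 at 34 °C held fewer, at 0.117 (Pol delta) and 0.035 (Pol epsilon), against 0.001 and 0.0 in replicate 1. The stn1-226 strains, with and without the rif1 deletion label, also held ends over ura4, at 0.389 to 1.78 in single libraries. Where the ends in wild type come from was not tested.

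In 5 of 83 groups of 4 or 8 libraries behind the named values, 1 library stood apart from the others by Dixon's criterion, which chance alone gives in about 1 group in 20. They were wild-type Pol delta replicate 1 at 25 °C in the block with SPAPJ695.01C (fork direction -0.992) and, in the block 78 to 87 kb from the right end of chromosome I, rif1 deletion Pol epsilon replicate 1 at 34 °C (-1.82) and Pol delta replicate 2 of the labelled stn1-226 rif1 deletion at 25 °C (-0.798). The other two were taz1 deletion Pol delta replicate 2 in the block 69 to 78 kb from that end (0.057) and rif1 deletion Pol epsilon replicate 1 at 34 °C at the site by SPAPJ695.01C (a step of 1.07).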

How the results depend on the processing

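No result reversed its sign under any alternative run. Over 42 named changes of blocks and sites, 664 of 760 alternative values stayed past the threshold and 96 did not. For fork direction, the calls among the 40 blocks moved as follows. With only the groups compared they were 13 for rif1 deletion at 25 °C (22), 7 for the labelled stn1-226 rif1 deletion at 25 °C (23), 15 for it at 34 °C (9), 1 for stn1-226 against wild type at 34 °C (0) and 0 for stn1-226 between temperatures (7), the number in brackets being that reported. With the class block they were 1 and 6 for stn1-226 against wild type at 25 and 34 °C (0 each), 17 for the labelled stn1-226 rif1 deletion at 34 °C, 21 for stn1-226 between temperatures, and 3 for the change of the labelled rif1 deletion effect with temperature (0). Without wild-type replicate 2 at 25 °C they were 3, 11 and 2 for stn1-226 at 34 °C, stn1-226 between temperatures and that change, and 1 for wild type between temperatures (0). DESeq2 gave 1, 13 and 1 for stn1-226 at 34 °C, stn1-226 between temperatures and that change. Limma gave 13 for taz1 deletion (23) and 0 for stn1-226 between temperatures.

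For steps, calls among the 28 sites for rif1 deletion at 25 °C (2) were 4 by DESeq2, 5 with the class block, 1 with the replicate block, without taz1 deletion or at sites called in wild type, and 0 by limma or with only the groups compared. At 34 °C (1) they were 4, 11, 2 with the replicate block or without wild-type replicate 2 at 25 °C, and 0 at sites called in wild type or with only the groups compared. The labelled stn1-226 rif1 deletion at 25 °C (3) gave 12 with the class block and 0 by limma or with only the groups compared, and at 34 °C (0) the class block gave 1, as it did for stn1-226 between temperatures (0). Limma gave 9 for taz1 deletion (22). For total ends, rif1 deletion at 25 °C (0) gave 1 by DESeq2. stn1-226 at 25 °C (1) gave 2 by DESeq2, with the class block or without taz1 deletion and 0 with only the groups compared, and at 34 °C (1) it gave 2 with the class block or only the groups compared.

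With 1 library left out, the remaining library of that strain being assumed to vary like the others, fork direction calls ran from 14 to 22 for rif1 deletion at 25 °C (14 without wild-type Pol delta replicate 1) and 13 to 17 at 34 °C, 19 to 21 and 5 to 9 for the labelled stn1-226 rif1 deletion at 25 and 34 °C, 19 to 25 for taz1 deletion, 1 to 6 for stn1-226 between temperatures, 0 to 1 for stn1-226 at 25 °C and for wild type between temperatures, and 0 to 3 for the change of the stn1-226 effect. Step calls ran from 0 to 4 and 0 to 6 for rif1 deletion at 25 and 34 °C (6 without rif1 deletion Pol epsilon replicate 1), 0 to 3 for the labelled stn1-226 rif1 deletion at 25 °C and 16 to 26 for taz1 deletion. Total-end calls ran from 0 to 6 for rif1 deletion at 25 °C (6 without its Pol epsilon replicate 1) and 1 to 2 for stn1-226 at 25 °C. The causes of these moves were not tested.

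The replicate numbers are not stated to pair libraries. Deviations of same-numbered libraries in fork direction correlated at 0.61 to 0.93 for stn1-226, its labelled rif1 deletion and the 34 °C comparisons with wild type, and at -0.85 and -0.86 for stn1-226 against wild type at 25 °C. The replicate block gave 22 and 19 fork-direction calls for rif1 deletion at 25 and 34 °C, and with the wild-type numbers crossed stn1-226 at 25 °C gave 0, 1 and 0 for fork direction, total ends and steps. What depth limits was not measured beyond the totals given.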
